A study of Homo sapiens with 6 samples.

Results

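Oxidative phosphorylation (OXPHOS) subunits encoded in the nucleus were followed at the mRNA level in K562 cells that carry either full-length or truncated EP400. The 75 genes were chosen by symbol and by level: every gene whose symbol follows the naming of complex I (NDUFA, NDUFB, NDUFC, NDUFS, NDUFV), complex II (SDHA to SDHD), complex III (UQCR), complex IV (COX4 to COX8, then at most a letter A, B or C and a 1 or 2, which does not take in COX4I1 or COX7A2L) or complex V (ATP5F1, ATP5M, ATP5P), together with CYC1 and CYCS, entered when its raw counts summed to 600 or more over the 6 libraries. Of 60609 genes in the files, 140 had such a symbol and 75 reached the minimum, 34 in complex I, 4 in complex II, 10 in complex III, 9 in complex IV and 17 in complex V, with CYCS (cytochrome c) beside them. NDUFA11 was just inside the minimum with 702 reads in all, and COX7B2 was just outside with 417.

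OXPHOS is the process by which mitochondria turn the energy of NADH and succinate into ATP. Complexes I and II pass electrons to coenzyme Q, complex III passes them on to cytochrome c, complex IV passes them to oxygen, and the proton gradient that complexes I, III and IV build drives complex V, the ATP synthase. Most subunits are made from nuclear genes spread over the chromosomes and imported, whereas a small set is made from mitochondrial DNA, so each of complexes I, III, IV and V is assembled from the products of both genomes. The nuclear transcription factors NRF1 (nuclear respiratory factor 1), GABP and YY1 are known to act on many subunit promoters.

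K562 is a human leukaemia line with erythroid and megakaryocytic features. EP400 is the ATPase at the core of a chromatin remodelling complex of the TIP60 type. TRRAP is the largest subunit of that complex and takes part in its recruitment by transcription factors. In all cells studied here both endogenous EP400 alleles carried FKBP12F36V-2xHA, a tag that lets the small molecule dTAGV-1 direct the protein to degradation, and all cells were given 500 nM dTAGV-1 for 24 h. WT cells expressed an untruncated EP400 transgene from the AAVS1 safe harbour locus, and Delta-TRRAP cells expressed from the same locus an EP400 without the SANT domain and its neighbouring region through which TRRAP binds. Each group had 3 libraries of poly(A) RNA, and each line was 1 clone, so that genotype and clone cannot be told apart and the spread is that between samples of 1 clone.

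The 6 libraries held 35076835 to 42616061 counted reads. EP400 reads, which the endogenous gene and the transgene share and which do not resolve the deletion, gave normalized counts of 4897, 4897 and 5377 in WT and 5533, 6833 and 4357 in Delta-TRRAP, a log2 difference of 0.14 ± 0.11 (SE) with an adjusted p of 0.272. Of 10 K562 markers 9 were at 1 CPM (counts per 1000000 reads) or more in every library, and their summed level was 5485 to 5522 CPM in WT and 3666 to 3755 CPM in Delta-TRRAP. Markers of other cell types were low apart from single genes. The 6 fibroblast markers summed to 0.871 to 1.40 CPM in WT and 24.5 to 25.9 CPM in Delta-TRRAP, nearly all of it COL1A2 with LUM at 0, and the 3 monocyte markers summed to 197 to 216 and 23.4 to 25.5 CPM, nearly all of it LYZ. T cell markers were at 10.5 to 11.6 CPM (CD3D), B cell markers at 0.542 to 1.05 CPM with MS4A1 at 0, and epithelial markers at 324 to 407 CPM (EPCAM and KRT8) with KRT5 at 0. The part of these marker differences in the results was not tested. In bulk RNA, fewer cells of a type and less RNA per cell cannot be told apart.

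The subunit mRNAs moved in both directions and in small steps, and all 75 passed the low-count filter (a mean of 5 normalized counts). At an adjusted p of 0.01 or less (edgeR quasi-likelihood test, Benjamini-Hochberg over 19114 tested genes), 32 of the 75 members fell in Delta-TRRAP cells, 10 rose and 33 were not called. The 32 that fell make 42.7% of the members, against 27.6% of all tested genes and 40.0% of the 11459 tested genes that averaged 100 normalized counts or more, the range in which all members lie. The share that fell is near that of expressed genes. The 10 that rose make 13.3%, against 30.7% of tested and 27.9% of these expressed genes. In either direction 56.0% were called, against 58.3% and 68.0%. ATP5F1E alone also changed at least 2-fold, 1.33% of the members beside 22.6% of tested and 13.0% of expressed genes. Counts are relative to the rest of each library: scaled by total counts alone, 24 members were lower and 20 higher, so that 54.5% of the calls were decreases in place of 76.2%, and with upper quartile scaling 26 were lower and 13 higher (66.7%).

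The median log2 fold change of the members was -0.16, with a range from -1.24 to 0.60 and a standard deviation (SD) of 0.36. Over expressed genes the median was -0.088 with an SD of 0.94, and over all tested genes the median was 0.030. Within 0.5 log2 units of no change lay 58 of the 75 members (77.3%), against 63.8% of expressed genes. Among the 42 called members 40 changed by less than 50%, and the smallest called change was 14.6%. The groups did not overlap in 45 members (60.0%), against 71.1% of tested and 78.3% of expressed genes. The values of all members not called lay between -0.23 and 0.20 on the log2 scale.

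**Figure D1:**
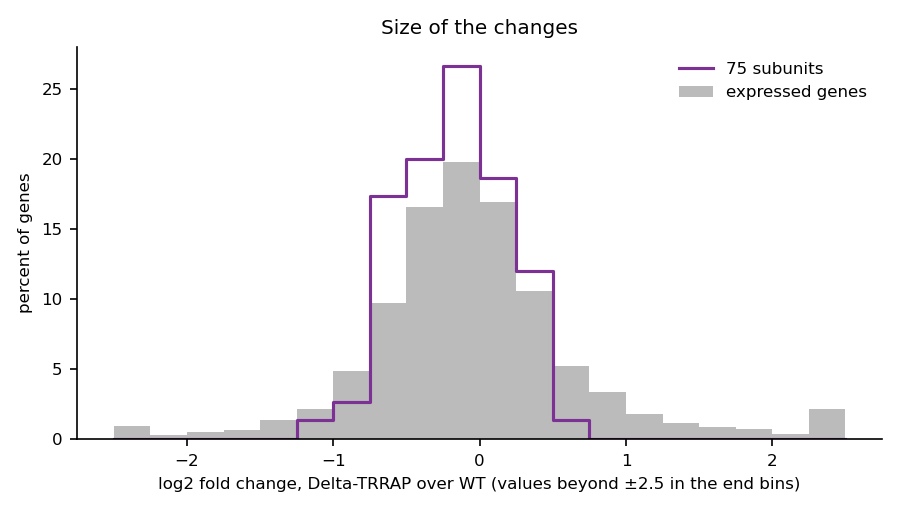
Distribution of log2 fold changes, Delta-TRRAP over WT, in bins of 0.25 (x axis) as percent of genes (y axis) for the 75 subunits (line) and 11459 expressed genes (bars). The subunits lie between -1.24 and 0.60, whereas expressed genes reach both end bins.

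The libraries of a group differed in a way that touched most members at once. WT replicate 3 was the lowest WT library for 67 of 75 members, and Delta-TRRAP replicate 2 was the lowest of its group for 68 of 75. The median member stood at 0.033, 0.044 and -0.083 log2 units from its own WT mean in WT replicates 1, 2 and 3, and at -0.14, -0.28 and -0.072 in Delta-TRRAP replicates 1, 2 and 3. Without Delta-TRRAP replicate 2 the members' median became -0.099 beside -0.091 for expressed genes, with 31 lower and 12 higher members, and without Delta-TRRAP replicate 3 it became -0.21 beside -0.085, with 38 lower and 10 higher. The distance of the members' median from that of expressed genes therefore ranged from -0.0078 to -0.13 depending on which library was left out, and was -0.074 with all 6.

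**Figure D2:**
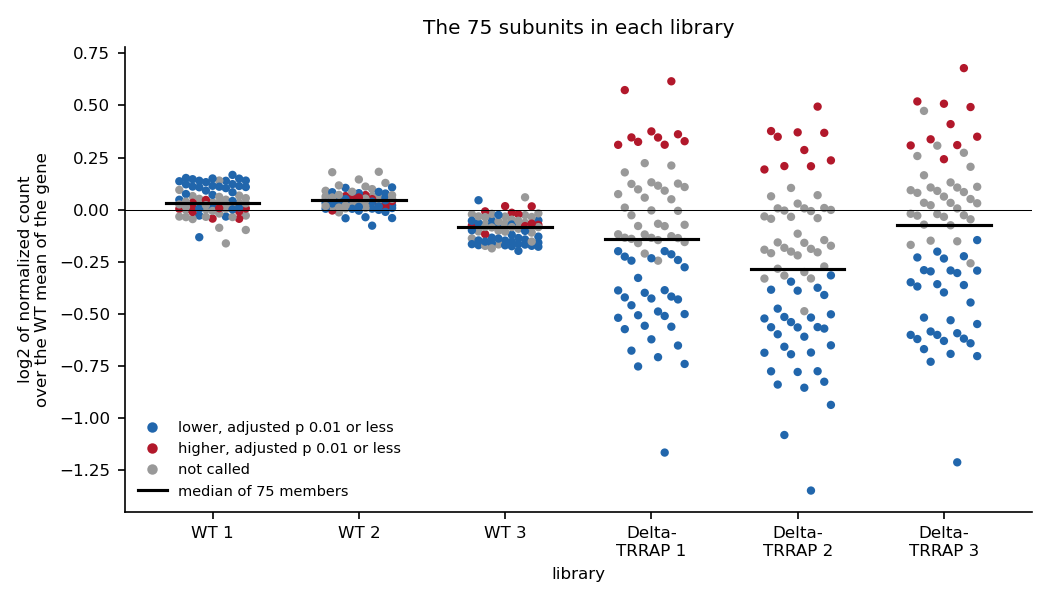
Each point is 1 of the 75 subunits in 1 library (x axis), as the log2 of its normalized count over its own WT mean (y axis), and horizontal lines are medians of 75. WT replicate 3 and Delta-TRRAP replicate 2 have the lowest median of their groups, at -0.083 and -0.28. Colours mark members called lower or higher (at an adjusted p of 0.01 or less). The calls were made on these same libraries, so the separation of the colours in Delta-TRRAP follows from the calls.

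Promoter sequence played no part in the choice of the members, though level did. RefSeq promoter windows of 300 bases (250 before and 50 after the gene start, GRCh38.p14) were matched for 60 of the 75 members. The NRF1 motif GCGCANGCG was in 35% of these windows and in 7.44% of 34941 promoters of all genes. The ETS motif CCGGAAG, to which GABP binds, was in 30% against 10.2%, the YY1 motif AAGATGG in 25% against 5.85%, the SP1 motif GGGCGG in 58.3% against 44.9%, the CCAAT box in 35% against 34.6%, the E-box CACGTG in 10% against 7.23%, and the letters TATAAA in 8.33% against 11.6%. Among members that fell, 8 of 25 windows held the NRF1 motif, 10 the ETS motif and 3 the YY1 motif. Among members that rose the numbers were 2, 1 and 0 of 8, and among those not called 11, 7 and 12 of 27. All motifs were read on both strands, and none contains another. These are exact matches to the letters given, in a fixed window, so near forms of a motif are missed. They are given as a description. The 34941 promoters were not limited to expressed genes, whereas the members were chosen by level, so the shares are not like for like.

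The windows of 4 members named below are printed to show promoters with and without these matches, with NRF1, ETS and YY1 matches in capitals. The first is that of ATP5F1E, which fell most, and the next is COX6A1 with an NRF1 and an ETS match. Then comes SDHA with 4 copies of the NRF1 letters, and last NDUFS8, which rose. The windows of ATP5F1E and NDUFS8 hold none of the 3 motifs as spelled above, but both hold CCAAT letters. Near forms of the YY1 letters are not marked, such as AACATGG in the NDUFS8 window and AAAATGG in that of COX6A1. They lie at chr20:59032286-59032585, minus strand, chr12:120437863-120438162, plus strand, chr5:218070-218369, plus strand and chr11:68030431-68030730, plus strand.
ATP5F1E: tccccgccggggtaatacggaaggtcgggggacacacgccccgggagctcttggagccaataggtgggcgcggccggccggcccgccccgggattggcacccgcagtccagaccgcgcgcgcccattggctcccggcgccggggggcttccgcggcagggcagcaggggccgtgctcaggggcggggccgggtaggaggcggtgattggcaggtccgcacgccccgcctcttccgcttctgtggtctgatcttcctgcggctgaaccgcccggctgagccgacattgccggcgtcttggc
COX6A1: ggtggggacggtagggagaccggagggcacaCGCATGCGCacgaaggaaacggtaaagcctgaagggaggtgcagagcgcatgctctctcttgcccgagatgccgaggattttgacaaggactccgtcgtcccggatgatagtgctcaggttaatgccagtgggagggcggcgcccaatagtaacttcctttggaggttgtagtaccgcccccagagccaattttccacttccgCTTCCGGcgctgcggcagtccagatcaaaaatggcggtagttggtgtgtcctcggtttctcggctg
SDHA: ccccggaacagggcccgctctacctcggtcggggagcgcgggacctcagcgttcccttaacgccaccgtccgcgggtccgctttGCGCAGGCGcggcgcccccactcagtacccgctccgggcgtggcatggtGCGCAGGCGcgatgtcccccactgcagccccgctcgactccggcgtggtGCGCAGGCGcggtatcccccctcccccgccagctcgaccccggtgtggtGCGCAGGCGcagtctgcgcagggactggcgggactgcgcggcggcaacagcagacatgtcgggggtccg
NDUFS8: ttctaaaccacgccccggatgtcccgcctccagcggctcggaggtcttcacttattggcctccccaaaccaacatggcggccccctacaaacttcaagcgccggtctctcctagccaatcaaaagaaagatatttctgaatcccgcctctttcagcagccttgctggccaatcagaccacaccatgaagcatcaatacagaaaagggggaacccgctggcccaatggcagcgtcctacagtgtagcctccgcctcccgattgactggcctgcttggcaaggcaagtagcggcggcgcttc

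Complex I, the NADH dehydrogenase, was mixed, with 29.4% lower and 23.5% higher against 40.0% and 27.9% of expressed genes. Of its 34 members 10 fell, 8 rose and 16 were not called, with a median log2 fold change of -0.087. That median was -0.024 without Delta-TRRAP replicate 2, -0.035 without WT replicate 2, -0.13 without WT replicate 3 or Delta-TRRAP replicate 3, and -0.014 with a count minimum of 50. With total-count scaling the balance turned to 8 lower and 13 higher at a median of 0.046, and with upper quartile scaling to 8 and 10 at 0.015. The catalytic core in the matrix arm carries the flavin and the iron-sulphur clusters that take electrons from NADH to coenzyme Q, and among its 6 members 0 fell and 2 rose. NDUFV1, the subunit that binds NADH and the flavin, gave normalized counts of 3894, 4002 and 3857 in WT and 4862, 4528 and 4950.4 in Delta-TRRAP libraries. The groups did not overlap, and NDUFV1 rose by 0.29 ± 0.051 on the log2 scale (± SE, n = 3 libraries a group, as for all members) with an adjusted p of 1.45e-04. NDUFS8, an iron-sulphur subunit whose promoter is shown above, rose from 1253, 1260.5 and 1237 to 1861, 1614 and 1759 (log2 fold change 0.48 ± 0.058, adjusted p = 2.89e-06). Its WT libraries lay close together, well below the lowest Delta-TRRAP library.

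Other core subunits of complex I were not called. NDUFS1, the largest iron-sulphur subunit, had 6455, 6242 and 6202 against 5803, 5814 and 5269, a log2 difference of -0.16 ± 0.053 that missed the threshold (adjusted p = 0.0138), although the groups did not overlap. NDUFS7, which holds the last cluster before the quinone, had 1235, 1232 and 1108 against 1299, 1190.3 and 1259.8 (log2 0.068 ± 0.06) with overlapping groups, and NDUFS3 was at -0.12 ± 0.056. The seventh nuclear core subunit, NDUFV2, was under the count minimum.

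Accessory subunits surround the core and serve assembly and stability. Of the 28 members counted as accessory, NDUFA4 among them, 10 fell and 6 rose. That is 35.7% lower and 21.4% higher, against 40.0% and 27.9% of expressed genes. Members were placed in complex I by symbol alone, and their place was not checked further. The core subunit NDUFS1 was not called at the main setting but was called lower in 7 of 17 others, DESeq2 and the fit without Delta-TRRAP replicate 2 among them, and no difference between core and accessory subunits was tested. NDUFS5 had 14215, 13099 and 11434 in WT and 7663, 6742 and 7783 in Delta-TRRAP. It fell by 42.7% (log2 -0.80 ± 0.075, adjusted p = 1.61e-07), and its highest Delta-TRRAP library was far below its lowest WT library. NDUFA5 fell from 26323, 23070.3 and 21838 to 14528, 13859.5 and 14923 (log2 -0.72 ± 0.065, adjusted p = 1.17e-07). After these came NDUFB2 at -0.71, NDUFB7 at -0.54, NDUFB3 at -0.47, NDUFS4 at -0.46, NDUFB6 at -0.44, NDUFS6 at -0.41, NDUFA1 at -0.33 and NDUFB9 at -0.27 (log2 fold changes). NDUFA1 lost its call when WT replicate 1 or WT replicate 2 was left out, and NDUFA1 and NDUFB9 both lost it with upper quartile scaling, total-count scaling or a count minimum of 50.

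The largest rise of any member was in complex I. NDUFB5, an accessory subunit of the membrane arm (ENSG00000136521.13, chr3:179604690-179627647 in hg38), rose from 5334, 5363 and 4945 to 7992, 7346 and 8350.04, by 51.4% (log2 0.60 ± 0.058, adjusted p = 2.44e-07). NDUFA8, which faces the intermembrane space, rose at 0.42, NDUFB4 at 0.33, NDUFA10 at 0.32, NDUFV3 at 0.32 and NDUFA2 at 0.28. Each of the 8 rises of complex I was called under all 17 alternative settings. Subunits of the same membrane arm thus stood at both ends, NDUFB2 and NDUFB7 low and NDUFB4 and NDUFB5 high in the same libraries.

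**Figure D3:**
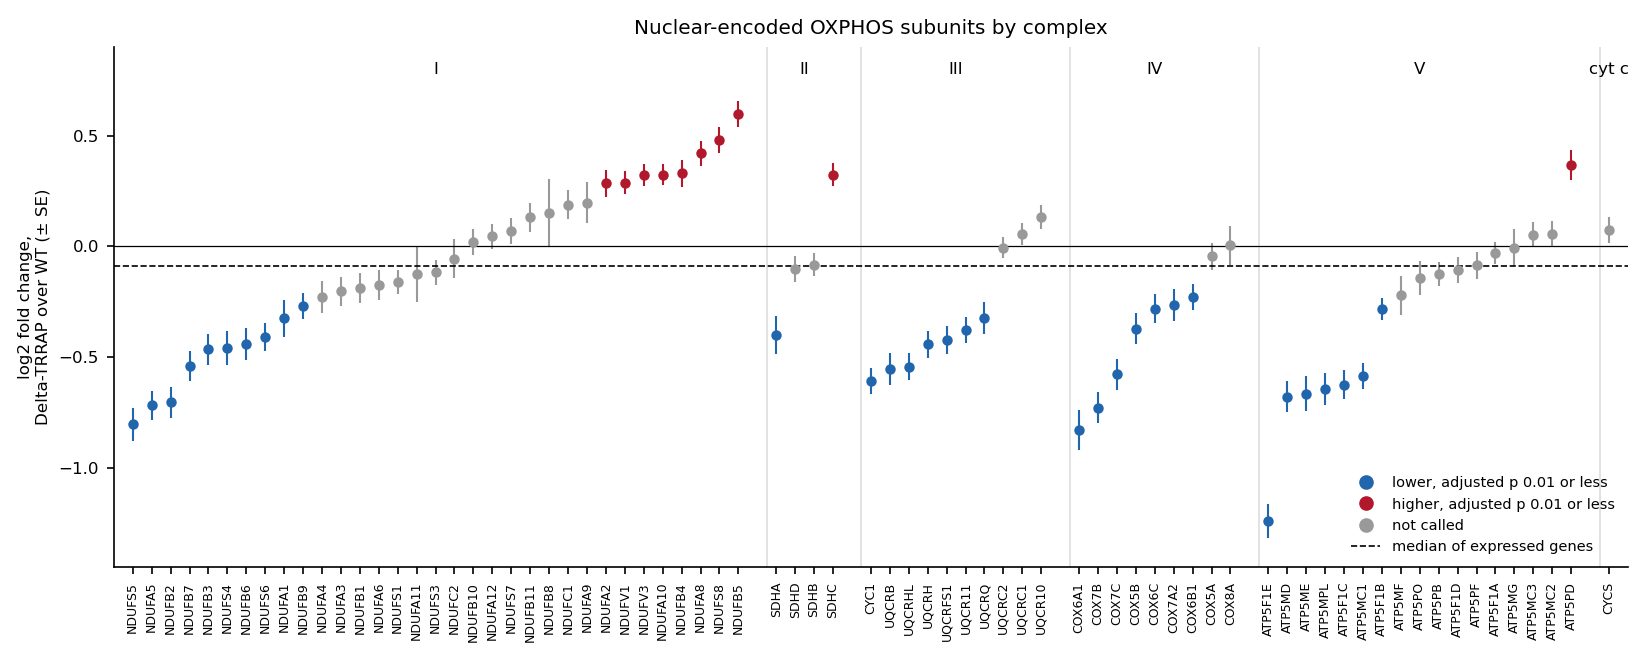
Log2 fold change, Delta-TRRAP over WT, with its standard error (y axis) for 74 of the 75 subunits (x axis), grouped by complex and ordered by value, with the median of expressed genes dashed. Called members (adjusted p of 0.01 or less) run from -0.80 (NDUFS5) to 0.60 (NDUFB5) in complex I, and in complexes III and IV 14 of 19 were lower and none higher, except that upper quartile scaling, total-count scaling, a higher count minimum and a length correction each called 1 or 2 of them higher.

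Complex II, succinate dehydrogenase, is the only complex of the chain with no mitochondrially encoded subunit, and its 4 members gave 1 fall, 1 rise and 2 values that were not called. SDHA, the flavoprotein that oxidises succinate, had 377, 436 and 426 in WT and 316, 288 and 337 in Delta-TRRAP. It fell by 24.2% (log2 -0.40 ± 0.086, adjusted p = 7.02e-04), a call that total-count scaling lost. SDHA shares 69.4% of its canonical transcript with other annotated genes on the same strand, where the counting leaves reads out, and it has near-identical pseudogene copies that make reads ambiguous. SDHC, a membrane anchor, rose from 3765, 4017 and 3857 to 4933, 5039 and 4589 (log2 0.32 ± 0.053, adjusted p = 6.30e-05), with no overlap between groups. SDHB, the iron-sulphur subunit, had 6349, 6482 and 5989.7 against 5938, 5668 and 6157 and SDHD, the other anchor, 5882, 5808 and 5560.4 against 5143, 5046 and 5873; both overlapped between groups, at log2 -0.084 ± 0.053 and -0.10 ± 0.06.

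Complex III, the cytochrome bc1 complex, had 7 members lower, 0 higher and 3 not called out of 10, with a median of -0.40. That is 70.0% lower, against 40.0% of expressed genes. Upper quartile and total-count scaling left 6 lower and called 1 and 2 higher. CYC1, the haem-bearing cytochrome c1 that hands electrons to cytochrome c, had 4600.2, 4352 and 4151 in WT and 3065, 2712 and 2821 in Delta-TRRAP. It fell by 34.4% (log2 -0.61 ± 0.058, adjusted p = 2.18e-07). UQCRFS1, the Rieske iron-sulphur protein, fell from 6816, 6618 and 6355 to 4938, 4461 and 5341 (log2 -0.43 ± 0.063, adjusted p = 2.18e-05). CYC1 and UQCRFS1 are the nuclear-encoded electron carriers of the complex, and in both every Delta-TRRAP library was below every WT library.

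The small subunits of complex III were lower as well, with 1 exception. UQCRB, which sits near the quinone site, fell from 21948, 19844 and 17569 to 14095, 12535 and 13811 (log2 -0.55 ± 0.073, adjusted p = 6.59e-06). UQCRH, the acidic hinge protein at the cytochrome c dock, fell at -0.44, UQCR11 at -0.38 and UQCRQ at -0.33, a call that UQCRQ lost with upper quartile scaling, total-count scaling or a count minimum of 50. UQCRHL is a near-identical intronless copy of UQCRH and fell at -0.54; reads of the pair that map to both places were left out by the authors, so how reads divide between the pair is uncertain. UQCR10 had 1763, 1919 and 1742 against 1969, 1943 and 2027, at log2 0.13 ± 0.054, and was not called (adjusted p = 0.0423).

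The pair of core proteins was not called. UQCRC1 had 4220.2, 4107 and 3923 against 4422, 4166 and 4143 (log2 0.056 ± 0.051). UQCRC2 had 10398, 10617 and 10152 against 10361, 10445 and 10235 (log2 -0.0059 ± 0.048). These are the large matrix subunits, and in both the groups overlapped.

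Complex IV, cytochrome c oxidase, had 7 of 9 members lower, 0 higher and a median of -0.28, with 4 lower and 0 higher under upper quartile scaling, total-count scaling, a count minimum of 50 or without WT replicate 1. At the main setting 77.8% of its members fell, against 40.0% of expressed genes. Only the outer subunits are nuclear, since its catalytic centre is made from mitochondrial DNA. COX6A1, the widely expressed form of subunit 6A, had 1916, 2005 and 1666 in WT and 1114, 879 and 1152 in Delta-TRRAP. It fell by 43.8% (log2 -0.83 ± 0.09, adjusted p = 7.95e-07). COX7B fell from 13596, 12907 and 11203 to 7994, 7019.9 and 7717 (log2 -0.73 ± 0.07, adjusted p = 2.22e-07), and COX7C followed at -0.58. For COX6A1 and COX7B the gap between the groups exceeded the range within either group.

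COX5A and COX5B, nuclear subunits on the matrix side of the enzyme, differed in their calls. COX5B, which binds zinc, fell from 5444, 5292 and 4594 to 4218, 3606 and 4012 (log2 -0.37 ± 0.07, adjusted p = 2.21e-04). COX5A had 7085, 7620.4 and 7083 against 6905, 6502 and 7699.5, at log2 -0.046 ± 0.062, with overlapping groups. COX6C at -0.28, COX7A2 at -0.26 and COX6B1 at -0.23 were the smallest called decreases of the complex, and all 3 lost their call with upper quartile scaling, total-count scaling or a count minimum of 50. They also lost it without WT replicate 1; COX7A2 and COX6B1 lost it without WT replicate 2 or Delta-TRRAP replicate 2. COX8A was at 0.0041 ± 0.089.

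Complex V, the ATP synthase, had 7 of 17 members lower, 1 higher and 9 not called, with a median of -0.14. The 41.2% that fell is near the 40.0% of expressed genes. The median was -0.078 without Delta-TRRAP replicate 2 and -0.24, with 10 lower, without Delta-TRRAP replicate 3. Total-count scaling gave 6 lower and 3 higher at -0.011, and upper quartile scaling and a count minimum of 50 gave -0.042 and -0.071. Its F1 head, which makes ATP in the matrix, had 3 of 5 members lower. ATP5F1E, the epsilon subunit of the central stalk (ENSG00000124172.10, chr20:59025475-59032345 in hg38), fell most of all members, from 13207, 12327 and 10457 to 5343, 4709 and 5172. It fell by 57.7% (log2 -1.24 ± 0.076, adjusted p = 1.35e-09), and the lowest WT library was nearly 2-fold above the highest Delta-TRRAP library. ATP5F1C, the gamma subunit that turns inside the head, fell from 19983, 18527 and 16569 to 12433, 11343 and 11933 (log2 -0.63 ± 0.065, adjusted p = 5.61e-07).

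The catalytic beta subunit moved less. ATP5F1B had 30873, 31371 and 30316 in WT and 26031, 24786 and 25220.4 in Delta-TRRAP. It fell by 17.9% (log2 -0.28 ± 0.049, adjusted p = 9.76e-05), and total-count scaling lost this call. ATP5F1A, the alpha subunit that alternates with beta in the ring, had 16223, 17222 and 16411 against 16309, 16152 and 16389 (log2 -0.029 ± 0.049), and ATP5F1D, the delta subunit, was at -0.11 ± 0.06. The 3 subunits of the central stalk therefore gave values from -1.24 to -0.11.

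In the membrane part, 3 of 5 small subunits fell, namely ATP5MD (the DAPIT protein of the dimer interface) at -0.68, ATP5ME (subunit e) at -0.67 and ATP5MPL (a small proteolipid) at -0.64. ATP5MD had 7745, 7379 and 6343 in WT and 4646, 4178 and 4585 in Delta-TRRAP. ATP5MF (subunit f) and ATP5MG (subunit g) were at -0.22 ± 0.087 and -0.007 ± 0.083 and were not called. Of the 4 peripheral stalk subunits, which hold the head still, 0 fell and 1 rose. Among expressed genes 40.0% fell and 27.9% rose, and groups of 4 or 5 genes are too small to be told from these shares. ATP5PD (subunit d) rose from 4555, 4719.6 and 4326 to 5692, 5340.3 and 6498 (log2 0.37 ± 0.067, adjusted p = 1.71e-04), whereas ATP5PO, ATP5PB and ATP5PF lay at -0.14, -0.12 and -0.087.

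The c ring, whose turning couples proton flow to ATP synthesis, is made of 1 mature protein that comes from 3 genes with different import sequences. ATP5MC1 fell from 2363, 2487 and 2184 to 1636, 1493 and 1554 (log2 -0.59 ± 0.059, adjusted p = 3.67e-07). ATP5MC2 had 2979, 2889 and 2697 against 3041, 2791 and 3073 (log2 0.056 ± 0.056), and ATP5MC3 had 16182, 16254 and 14853 against 16861, 15386 and 16773 (log2 0.052 ± 0.056). As a share of the summed counts of the 3 genes, ATP5MC1 went from 11.2% ± 0.28 in WT to 7.48% ± 0.19 in Delta-TRRAP (SD, n = 3), ATP5MC2 from 13.6% ± 0.24 to 14.2% ± 0.12 and ATP5MC3 from 75.2% ± 0.061 to 78.3% ± 0.079. For ATP5MC1 the groups did not overlap, and the 2-sided exact permutation p was 0.1, the smallest that 3 against 3 libraries allow. The 3 shares sum to the whole, so the other two are not separate results.

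For some other subunits only 1 of the alternative forms had counts. COX6A2, COX7A1 and COX8C, and COX4I2 among the genes whose symbols the choice does not spell, had 0 counts in all 6 libraries, which allows up to 3 counts a library or 0.0704 to 0.0855 CPM (counting error only). Their partners COX6A1, COX7A2, COX8A and COX4I1 carried the counts. COX4I1 had 12445, 12936 and 11692 against 12909.8, 11806 and 12705 (log2 0.013 ± 0.056), and was not called. CYCS, the mobile carrier between complexes III and IV, had 29649, 29780.4 and 28731 against 29582, 29292 and 33886, at log2 0.073 ± 0.059, and was not called either.

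Summed over members, the nuclear transcripts of complexes III and IV had the lowest ratios of Delta-TRRAP to WT. Complex I went from 3289 ± 202 to 2867 ± 146 CPM (SD, n = 3, scaled with the TMM factors), a ratio of 0.872. Complex II was at 419 ± 11.8 and 423 ± 12.03 CPM (ratio 1.01), complex III at 1930 ± 128 and 1509 ± 66.7 CPM (0.782), complex IV at 1585 ± 123 and 1213 ± 82.3 CPM (0.766) and complex V at 3951 ± 194 and 3267 ± 147 CPM (0.827). A sum follows its few most abundant members, so it is a description of the transcript pool and not of the typical subunit. With TMM scaling every Delta-TRRAP library was below every WT library in complexes I, III, IV and V, and in complex II the groups overlapped. With total counts alone as the scale the ratios were 0.956, 1.11, 0.858, 0.840 and 0.907 for complexes I to V, the groups of complex I overlapped, and those of complex II did not, with Delta-TRRAP the higher.

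**Figure D4:**
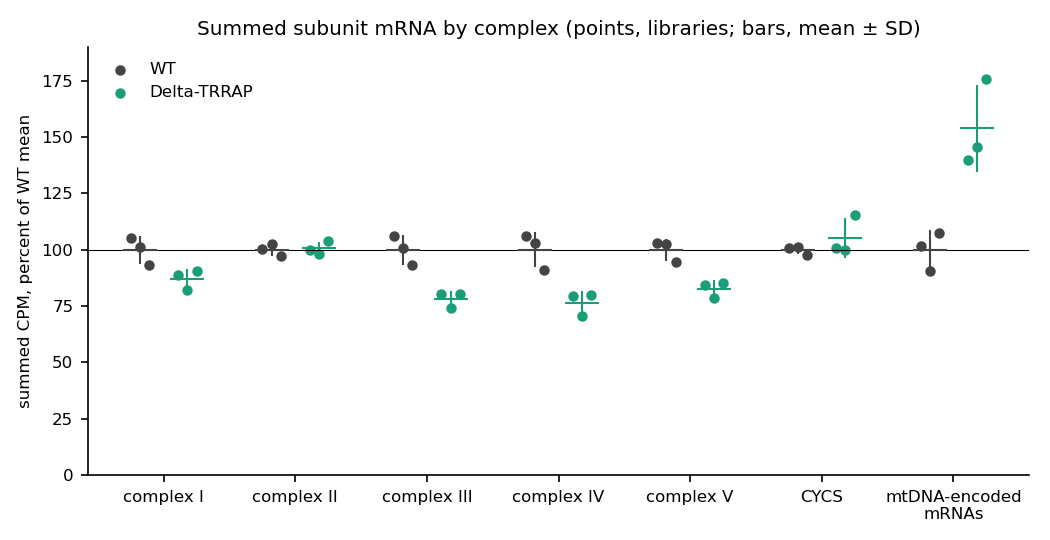
Summed TMM-scaled CPM of the members of each complex, of CYCS and of the 13 mRNAs of mitochondrial DNA, as percent of the WT mean (y axis); points are libraries and bars are mean ± SD of 3. Complexes III and IV were at 0.782 and 0.766 of WT, complex II at 1.01 and the mitochondrially encoded mRNAs at 1.54.

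The subunits made from mitochondrial DNA mostly rose. Of 13 such mRNAs 10 rose, 0 fell (1 fell without Delta-TRRAP replicate 3 and 1 with no count filter) and 3 were not called, with a median of 0.54, and their summed level was 26882 ± 2299 CPM in WT and 41379 ± 5195 CPM in Delta-TRRAP (SD, n = 3). The number that rose was 9 to 11 under every scaling and left-out library. At the main setting 76.9% rose, against 27.9% of expressed genes. MT-CO2, a catalytic subunit of complex IV, rose from 91865, 84031 and 95937 to 167651, 171039 and 210131 (log2 1.01 ± 0.079, adjusted p = 2.11e-08). MT-CO1, which holds the oxygen-reducing centre, was at 0.82 ± 0.082 and MT-ND4, a proton-pumping subunit of complex I, at 0.73 ± 0.09. MT-CO3 was at 0.65, so that in complex IV all 3 mitochondrial subunits rose while the 7 called nuclear members fell. MT-CYB, the mitochondrial subunit of complex III, was at 0.72 ± 0.081.

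MT-ND6, MT-ND3 and MT-ND2 were not called, at -0.23 ± 0.19, -0.087 ± 0.06 and 0.26 ± 0.087. MT-ND6 is transcribed from the strand opposite to the other mitochondrial mRNAs, and its Delta-TRRAP libraries were 9844, 10196 and 18692 beside 17133, 11957 and 16328 in WT, the widest spread of the 13. Mitochondrial genes as a whole made up 3.18% to 3.71% of a WT library and 5.07% to 6.24% of a Delta-TRRAP library. With these genes removed from the counts, 34 members were lower and 10 higher. The libraries were of poly(A) RNA, and how far that selection recovered each mitochondrial mRNA, MT-ND6 included, was not tested.

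Genes that regulate the OXPHOS genes or maintain mitochondrial DNA were mostly lower, 11 of 15 tested or 73.3%, with none higher at the main scaling and a median of -0.30. Of all tested genes 27.6% were lower, and of expressed genes 40.0%. With upper quartile and total-count scaling 8 and 7 were lower and 1 was higher in each. TFB2M, which opens mitochondrial promoters, had 6061, 5408 and 5536 in WT and 2407, 2372 and 2624 in Delta-TRRAP (log2 -1.20 ± 0.059, adjusted p = 1.12e-10). POLRMT, the mitochondrial RNA polymerase, was at -0.75 ± 0.054, and TFAM, which packages mitochondrial DNA and starts its transcription, fell from 16920.3, 17021 and 16425 to 10072, 9865 and 10154 (log2 -0.74 ± 0.048). Among the factors whose motifs were searched, YY1 fell at -0.59, GABPB1 at -0.38 and NRF1 at -0.26, whereas GABPA, at -0.14, was not called. PPARGC1A, the coactivator PGC-1 alpha, had 4 reads in all and was not tested.

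Assembly factors followed no single direction. For complex I, 8 of 16 fell and 3 rose, with NDUFAF8 at -0.83, NDUFAF2 at -0.77 and NDUFAF4 at -0.66 the farthest from 0. For complexes II and III, 6 of 10 fell and 0 rose, led by SDHAF3 at -0.61, SDHAF1 at -0.54 and BCS1L at -0.51. Upper quartile scaling, total-count scaling or a count minimum of 50 left 4 lower and called 1 higher. With no count filter, with a length correction or without Delta-TRRAP replicate 2, 1 was called higher as well. BCS1L puts the Rieske protein UQCRFS1 into complex III. For complex IV, 10 of 23 fell and 4 rose; SCO2, which delivers copper, fell from 199, 206 and 179 to 109.8, 86.8 and 94.1 (log2 -1.01 ± 0.12), COX14 was at -0.80 and COA7 at -0.64.

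Those of complex V had 3 of 5 higher and 0 lower. ATPAF2, a chaperone of the F1 alpha subunit, rose from 218, 206 and 200.4 to 319.7, 319.8 and 322 (log2 0.62 ± 0.082, adjusted p = 6.88e-06), ATPAF1, a chaperone of the beta subunit, was at 0.58 and TMEM242 at 0.32. Over the 54 assembly factors together 24 fell and 10 rose, 44.4% and 18.5%. Of expressed genes 40.0% fell and 27.9% rose, so the share that fell is near theirs.

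Neighbouring pathways gave mixed counts too. Of the coenzyme Q genes 38.5% fell and 53.8% rose, and of the tricarboxylic acid cycle genes 15.4% and 30.8%. Of expressed genes 40.0% fell and 27.9% rose. In coenzyme Q synthesis 5 of 13 genes fell, among them COQ5 at -0.81, COQ8A at -0.66 and PDSS1 at -0.58, while 7 rose. In the tricarboxylic acid cycle, which supplies NADH and succinate, 2 of 13 fell and 4 rose, with SUCLG2 at -0.38 and DLST at 0.34; with total-count scaling 8 rose. Nuclear subunits that the symbols do not cover had 3 of 5 tested lower and 0 higher, ATP5IF1 (the inhibitor of ATP hydrolysis) at -0.31, NDUFAB1 (the acyl carrier protein of complex I) at -0.30 and COX7A2L at -0.20, none of which was called with upper quartile or total-count scaling.

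**Figure D5:**
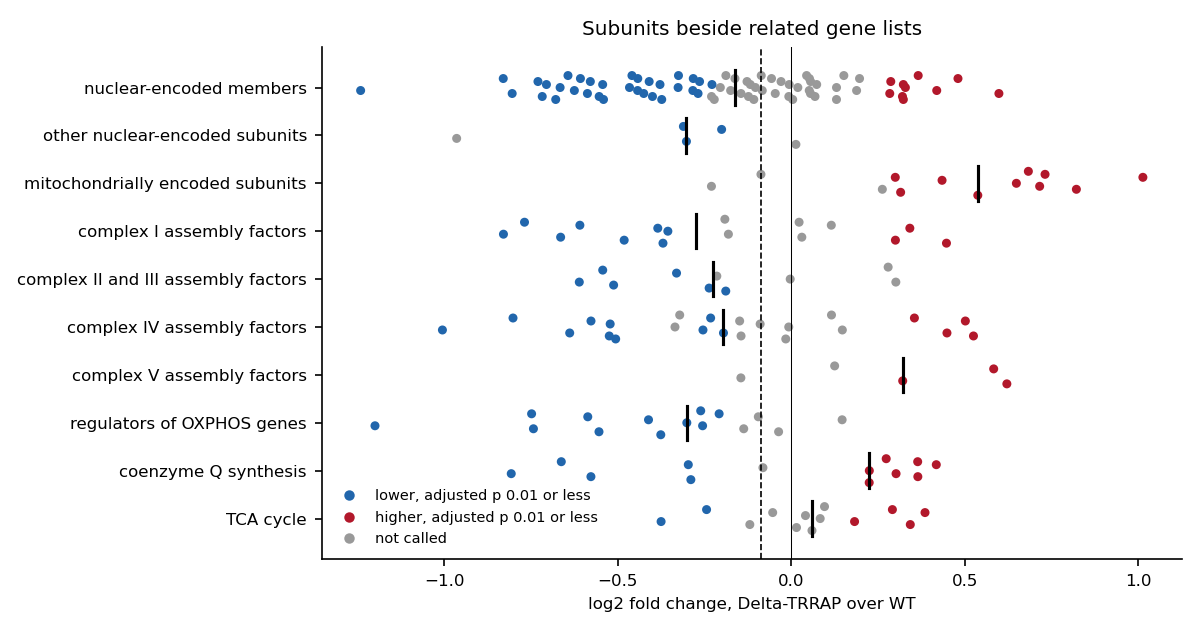
Log2 fold change, Delta-TRRAP over WT (x axis), of each tested gene of 10 lists (y axis); vertical bars are list medians, the dashed line is the median of expressed genes, and colour marks calls at an adjusted p of 0.01 or less. Mitochondrially encoded subunits have a median of 0.54, nuclear-encoded members -0.16 and regulators -0.30; with other scalings 1 regulator is called higher.

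Transcript length was also set beside the calls. The 19 members with a canonical transcript (GENCODE v44) of up to 600 bp had a median of -0.33, with 12 lower and 0 higher, while the 321 other expressed genes of that length had a median of -0.13. Members of 600 to 1000 bp had 8 lower and 5 higher with a median of -0.11, beside -0.14 for other expressed genes of that length. Those of 1000 to 2500 bp had 7 lower and 2 higher with -0.10, beside -0.11. Those over 2500 bp had 5 lower and 3 higher with -0.076, beside -0.072. Among all expressed genes 40.0% were lower and 27.9% higher. The members' median thus stood apart from that of other genes mainly in the shortest bin. Lengths are those of the annotated canonical transcript, and the forms present in these cells were not measured. The bin over 2500 bp, with 5 lower and 3 higher, held ATP5F1E, NDUFA5 and UQCRB at annotated lengths of 3610, 5496 and 8459 bp. The correction below used the same lengths. When a length trend was taken out of each library, 33 members were lower and 14 higher, the members' median was -0.10 beside -0.073 for expressed genes, and of the shortest group 11 were lower and 1 higher. The long mRNAs of EP400 and TRRAP were highest in Delta-TRRAP replicate 2, the library in which the members were lowest, at 6833 and 8769 normalized counts. RNA integrity values were not analysed here, and the part of RNA quality or transcript length in the calls was not tested beyond this correction.

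Position in the genome was set beside the calls. The members lie on 22 chromosomes, and the median log2 fold change of expressed genes within 5 Mb of each ranged from -0.77 to 0.31. Over the 75 members, Spearman's rho between a member's log2 fold change and that median was 0.17, a description in which the points share libraries and some share neighbours. The neighbours of COX6A1 had a median of -0.77, close to its own value, and those of ATP5F1E had -0.63, about midway to its -1.24. NDUFS6, SDHA, UQCRFS1 and COX6B1 fell no further than their neighbours, whose medians were -0.67, -0.45, -0.60 and -0.42. UQCRQ fell within a region at 0.30, and NDUFA2, which rose, had neighbours at 0.31. The part of the genomic region in these calls was not tested.

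Counting rules limited some members. Reads that overlap a second gene on the same strand and reads that map to several places were not counted. NDUFA11, NDUFB8, SDHA and ATP5PO share over 50% of their canonical transcript with other genes on the same strand, and 60 members share none. NDUFA11 and NDUFB8 had the fewest counts in complex I, 153, 177 and 161 against 185, 136 and 227 for NDUFB8, and SE of 0.12 and 0.15 on the log2 scale. Of the 65 symbols that did not reach 600 counts, 56 are pseudogenes and 9 are protein coding, and 26 had no counts at all.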

How the data were processed

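RNA-seq libraries of K562 cells were analysed, 3 for WT and 3 for Delta-TRRAP, all exposed to 500 nM dTAGV-1 for 24 h. The deposited values are raw counts per gene that the authors made with STAR on hg38, keeping reads that map to 1 place, and with HTSeq 2.0.2 in stranded union mode on GENCODE v32. A deposited table of normalized counts, with 3 columns of samples not analysed here, and a table of the authors' own fold changes and p-values were not used.

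From the counts, genes averaging 5 or more normalized counts were kept (19114), scaled by trimmed mean of M values (TMM) over these genes and tested with edgeR 4.0.16 (glmQLFit and glmQLFTest, group as the only term, R 4.3.3) with Benjamini-Hochberg adjustment over all of them. Standard errors are the log2 fold change divided by the square root of F. A member is called at an adjusted p of 0.01 or less, a 2-fold call also needs that fold change, and normalized counts are TMM-scaled to a common depth. Totals of 35076835 to 42616061 counts make counting error small beside the spread between libraries for all but the lowest members, and intervals and limits cover counting error only. Nothing in the sources used here says whether replicates were grown apart beyond their label as biological replicates, so p-values measure the spread between these samples. The members and lists were chosen with earlier results of these data known, and the lists of related genes were written from general knowledge. Genes named are the redox and catalytic core subunits, up to 2 largest rises and 2 largest falls per complex among called members, isoform groups and up to 3 genes per list; others appear as counts, ranges or short values. GENCODE v44 on the same assembly gave positions, lengths and overlaps. Alternatives were DESeq2 1.42.0, limma-voom 3.58.1, other scalings and filters, a block for replicate number, each library left out, and, added after seeing the data, TMM over all genes and a length correction. Figures were drawn with matplotlib 3.10.9. Values of some single genes of the rule are not reported here.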

Additional observations from a re-analysis of the deposited data

How the results depend on the processing

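With all 6 libraries 32 members were lower, 10 higher and 1 passed the 2-fold threshold, at a median log2 fold change of -0.16. DESeq2, limma-voom, relative log expression scaling, removal of mitochondrial genes, no count filter, TMM over all genes and the length correction, the last 2 chosen after seeing the data, gave 32 to 38 lower and 10 to 14 higher. Total-count scaling gave 24 lower, 20 higher and a median of -0.030; upper quartile scaling gave 26, 13 and -0.062; a minimum mean count of 50 gave 26, 12 and -0.090. Total-count scaling moved the median of all tested genes from 0.030 to 0.16, and the distance of the members' median from that of expressed genes stayed at -0.074. At an adjusted p of 0.05, 38 were lower and 12 higher. Leaving out 1 library at a time gave 28 to 38 lower, 10 to 12 higher, 1 at 2-fold, and medians from -0.21 to -0.099. Of the 32 lower members 24, and of the 10 higher members 10, kept their call under all 17 settings, and 0 members were called in the opposite direction under any. Replicate numbers did not pair the libraries (correlations of same-numbered deviations 0.087, -0.084 and -0.19), and with a replicate block 31 members were lower and 10 higher, with 1 at 2-fold and a median of -0.16.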

Other observations

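Some protein-coding symbols of the same families were under the count minimum and stood apart in size of change. COX7B2, a paralogue of COX7B with a narrow tissue range, had normalized counts of 146, 98.8 and 96.7 in WT and 20.6, 24.4 and 30.7 in Delta-TRRAP libraries (log2 fold change -2.17 ± 0.22, edgeR adjusted p = 3.23e-07). COX6B2, known from testis, fell from 16.2, 29.7 and 34.6 to 6.86, 9.75 and 6.35 (log2 -1.79 ± 0.36, adjusted p = 3.74e-04). NDUFA7, an accessory subunit of complex I, rose from 6.08, 5.76 and 10.2 to 19.6, 16.6 and 26.4 (log2 1.49 ± 0.34, adjusted p = 0.00129). NDUFV2, a core subunit of complex I that binds an iron-sulphur cluster, had 50.7, 57.6 and 58 against 54.9, 57.5 and 70.9 and was not called, and NDUFA13 had 41.5, 26.9 and 34.6 against 25.5, 30.2 and 26.4, also not called. NDUFA7, NDUFA13 and NDUFV2 share 77.9%, 83.9% and 89.96% of their canonical transcript with another gene on the same strand, where reads are not counted. These genes were chosen after their values were seen, and at such counts a few reads move a value.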
